A study of Hordeum vulgare with 18 samples.

Results

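This account concerns the flag leaf of the barley (Hordeum vulgare) cultivar Karl, compared between 21 days and 14 days post anthesis. It uses 6 of the 18 libraries of the series, 3 of Karl at 21 d and 3 of Karl at 14 d, chosen by cultivar and age as the sample titles give them, and 9973 of 13626 deposited genes passed a filter on low counts. All plants were grown in a glasshouse, 3 to a 4-liter pot with fertilizer, and the labels give all groups the same growth and harvest protocol. Each library came from RNA of at least 10 pooled flag leaves, so a value is an average over leaves and over all cell types in them. The rest of the series holds Karl at 7 d and the line 10_11, which is near-isogenic to Karl, at 7, 14 and 21 d, with 3 libraries each.

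The flag leaf is the uppermost leaf of a cereal shoot and a main source of carbon and nitrogen for the filling grain. As it senesces, chloroplasts are dismantled, their proteins are broken down and the nitrogen is exported to the grain. Leaf senescence is known to be an ordered program in which some genes are switched on while genes for photosynthesis are turned down. The comparison asks which transcripts changed in Karl from 14 d to 21 d. How far these leaves had senesced was not checked here.

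Expression was read as tags from the 3′ ends of transcripts (MARS-seq). The libraries of Karl at 21 d held 1351123 to 2616825 counts, those of Karl at 14 d 1381441 to 2088696, and the 18 libraries 353982 to 3231258. Levels are given in CPM, counts on a scale common to all libraries (counts per 1000000 after TMM scaling). They are relative to the other counted transcripts of a library and, because of the scaling, are not plain shares of its counts. Fewer cells of a type and less RNA per cell cannot be told apart. At 69 genes that differed between the lines at 7 d and 21 d, the Karl 14 d libraries lay at -0.0436 to -0.0011 on a scale from Karl (0) to 10_11 (1), and at 120 genes that differed at 7 d and 14 d the Karl 21 d libraries lay at -0.0729 to 0. The library labelled 10_11 14 d replicate C lay at 0.0794, against 1.00 for both other 10_11 libraries of that day, so it went against its line label. It is not one of the 6 libraries compared here but shares the estimate of spread with them, and the comparisons with 10_11 are given with and without it. The identifiers could not be paired with gene names, so genes are described by identifier or by chromosome and rank, the labelled tissue was not checked against marker genes, and gene groups of known function are not described.

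In Karl 44 genes were higher and 53 lower at 21 d than at 14 d, 0.973% of the genes tested (edgeR quasi-likelihood test, Benjamini-Hochberg adjusted p under 0.05). By direction this was 0.441% higher and 0.531% lower. Of the called genes, which the test chose for their change, 40 of the 44 risen and 50 of the 53 fallen changed at least 2-fold, 11 and 22 at least 4-fold, and 3 and 8 at least 8-fold. Of all tested genes 6.52% had a fold change of at least 2 in either direction, and the median size of the log2 fold change was 0.288. The median log2 fold change (21 d over 14 d) was 1.46 among the risen genes and -1.75 among the fallen ones, where the median of all tested genes was -0.016. The 3 Karl 21 d libraries and the 3 Karl 14 d libraries did not overlap in any of the 44 risen genes and in 52 of the 53 fallen ones, while 23.0% of all tested genes showed no overlap, 11.5% in each direction. The exception was a 4H gene with 2.07 ± 1.57 CPM at 21 d, against 26.8 ± 23.4 CPM at 14 d (SD, n = 3 each), whose 14 d replicate C lay among the 21 d values. The spread behind these calls came from all 18 libraries, and a fit of the 6 Karl libraries alone called 76 genes, of which 44 were among the 97 (45.4% of the 97 and 57.9% of the 76).

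**Figure D1:**
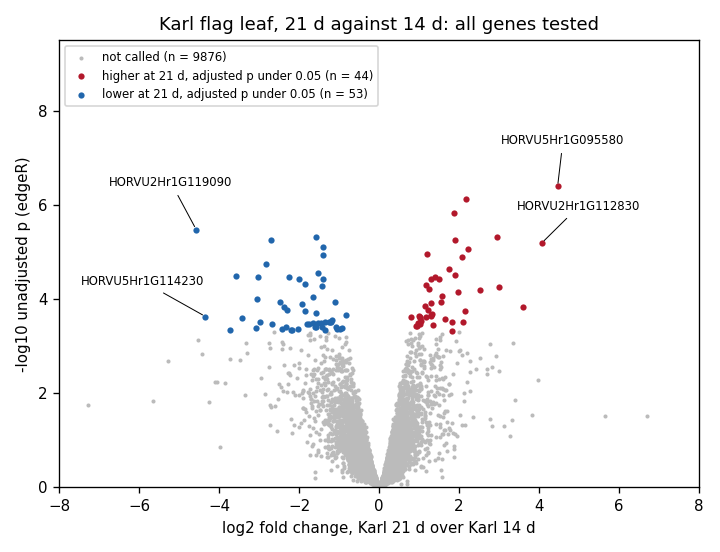
Each point is 1 of 9973 genes tested, with the log2 fold change of Karl 21 d over Karl 14 d on the horizontal axis and -log10 of the unadjusted edgeR p on the vertical axis. Red points are the 44 genes called higher at 21 d, blue points the 53 called lower, and the 4 genes named in the text are labelled.

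The 4 genes named here were chosen by size of change among genes whose 21 d and 14 d libraries did not overlap, so the lack of overlap in them is no finding. The largest rise was that of HORVU5Hr1G095580. It had 5670, 2914 and 6123 CPM in Karl 21 d replicates A, B and C, against 116, 369 and 181 CPM in Karl 14 d replicates A, B and C. The rule required the lowest 21 d library to lie above the highest 14 d library. The mean was 4902 ± 1737 CPM at 21 d, against 222 ± 131 CPM at 14 d (SD, n = 3 each), a log2 fold change of 4.46 with an SE of 0.58 (edgeR adjusted p = 0.0037). This gene alone took 0.671%, 0.31% and 0.727% of all counts in the 21 d libraries, against 0.0129%, 0.0391% and 0.0203% in the 14 d libraries. At 7 d it had 386 ± 170 CPM (SD, n = 3), and the change from 7 d to 14 d, -0.79 on the log2 scale, was not called (edgeR adjusted p = 0.361). It stayed called without any 1 of the 6 libraries, with a log2 fold change of 4.15 to 5.05.

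HORVU2Hr1G112830 rose from a handful of counts. It had 36.3, 16.9 and 19.4 CPM in Karl 21 d replicates A, B and C, which are 58, 47 and 35 counts, against 1.86, 1.35 and 0.646 CPM in Karl 14 d replicates A, B and C, which are 4, 3 and 1 counts. The rule for named genes required these libraries not to overlap. The log2 fold change was 4.07 with an SE of 0.63 (edgeR adjusted p = 0.00711), and 3.68 without Karl 21 d replicate A, where the call was lost (edgeR adjusted p = 0.0712). At 7 d a single count was found in 1 of 3 Karl libraries.

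Among the fallen genes HORVU2Hr1G119090 had the largest change. It had 1.25, 4.31 and 2.77 CPM in Karl 21 d replicates A, B and C, against 144, 34.3 and 38.8 CPM in Karl 14 d replicates A, B and C. Replicate A was the high one at 14 d. The log2 fold change was -4.57 with an SE of 0.70 (edgeR adjusted p = 0.00691). Without Karl 14 d replicate A it was -3.58 (edgeR adjusted p = 0.0229), and the call was lost without Karl 21 d replicate A (0.0712) or C (0.0546). At 7 d this gene stood at 665 ± 153 CPM (SD, n = 3), and its change from 7 d to 14 d was -3.19 on the log2 scale (edgeR adjusted p = 0.00213), so its level was lower at each later day.

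HORVU5Hr1G114230 fell next most. It had 1.25, 7.90 and 1.66 CPM in Karl 21 d replicates A, B and C, against 150.2, 42.4 and 58.8 CPM in Karl 14 d replicates A, B and C. This call had the highest adjusted p of the 4. The log2 fold change was -4.34 with an SE of 0.95 (edgeR adjusted p = 0.0417). The call was lost without Karl 21 d replicate A (0.21) or C (0.152) and without Karl 14 d replicate A (0.161) or C (0.0649), and the log2 fold change was -5.76 without Karl 21 d replicate B and -3.60 without Karl 14 d replicate A.

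**Figure D2:**
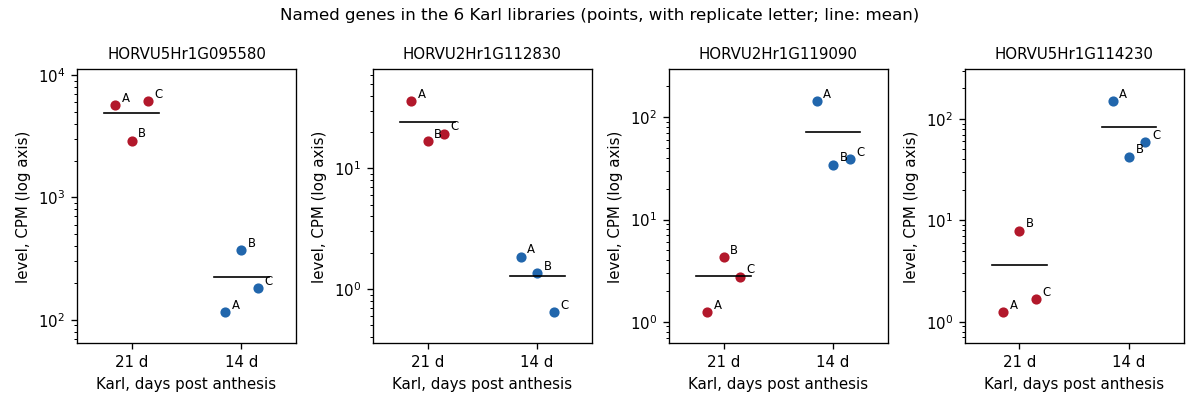
Levels in CPM on a log axis of the 4 named genes in the 3 Karl libraries of 21 d (red, left) and of 14 d (blue, right). Letters are replicates and lines are means; the 2 ages do not overlap in any panel, as the choice of genes required, and the first panel spans 116 to 6123 CPM.

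Below these, the ranking by size of change took in genes of every chromosome. In the order of the rule for named genes, the third to seventh largest rises were a 1H gene with a log2 fold change of 3.61, a 7H gene with 2.94, a 4H gene with 2.53, a 5H gene with 2.22 and another 7H gene with 2.18. The last of these was the steadiest: it had 146, 77.6 and 170 CPM in Karl 21 d replicates A, B and C, against 28.4, 27.5 and 30.4 CPM in Karl 14 d replicates A, B and C (edgeR adjusted p = 0.0037), and it was, beside HORVU5Hr1G095580, the other gene called without any 1 library. The 1H gene was the most dependent on a single library, with 73.2 CPM in Karl 21 d replicate A against 14.0 and 27.7 CPM in replicates B and C, and its log2 fold change was 2.74 without replicate A (edgeR adjusted p = 0.205). On the falling side, the third to seventh were a 1H gene with a log2 fold change of -3.43, a 6H gene with -3.07, another 1H gene with -3.04, a 2H gene with -2.97 and a 3H gene with -2.82. The 6H gene had 21.9, 69.3 and 6.096 CPM at 21 d, against 481, 191 and 174 CPM at 14 d, and its log2 fold change was -4.34 without Karl 21 d replicate B. That of the first 1H gene was -4.41 without Karl 21 d replicate C.

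Several changes concerned abundant transcripts. These genes were picked out after their values were seen. Besides HORVU5Hr1G095580, 3 risen genes had a mean of over 1000 CPM at 21 d. A 5H gene had 3329 ± 745 CPM at 21 d, against 892 ± 121 CPM at 14 d (SD, n = 3 each), a log2 fold change of 1.90 with an SE of 0.30 (edgeR adjusted p = 0.00691). A 2H gene had 2771 ± 395 CPM at 21 d, against 1204 ± 209 CPM at 14 d (SD, n = 3 each; edgeR adjusted p = 0.00901). A 1H gene had 1608 ± 143 CPM at 21 d, against 930 ± 3.59 CPM at 14 d, the smallest called rise, with a log2 fold change of 0.79 with an SE of 0.17 (SD, n = 3 each, edgeR adjusted p = 0.0417).

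Of the fallen genes 2 had a mean of over 1000 CPM at 14 d. A 2H gene had 399, 573 and 1180 CPM in Karl 21 d replicates A, B and C, against 6937, 6801 and 3116 CPM in Karl 14 d replicates A, B and C (edgeR adjusted p = 0.044). Replicate C was the highest of the 21 d libraries and the lowest of the 14 d libraries, and the gene lost its call without any 1 of the 6 libraries (edgeR adjusted p = 0.0588 to 0.246). A 4H gene had 1033 ± 286 CPM at 21 d, against 2336 ± 163 CPM at 14 d (SD, n = 3 each; edgeR adjusted p = 0.0438).

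The called genes together held a small part of the counts. The 44 risen genes took 2.33%, 1.32% and 2.22% of counts in Karl 21 d replicates A, B and C, against 0.555%, 0.478% and 0.547% in Karl 14 d replicates A, B and C. Leaving aside HORVU5Hr1G095580, these shares were 1.66%, 1.01% and 1.49% at 21 d and 0.542%, 0.439% and 0.527% at 14 d. The 53 fallen genes took 0.27%, 0.368% and 0.386% at 21 d and 1.55%, 1.37% and 1.03% at 14 d. Leaving aside the most abundant, the 2H gene that lost its call without any 1 library, they took 0.223%, 0.307% and 0.246% at 21 d and 0.777%, 0.644% and 0.682% at 14 d. Among the 100 genes with the highest level in Karl at 14 d, 1 was called higher and 2 lower, and 32 had a fold change above 0 and 68 below it, with a median log2 fold change of -0.19. Over all tested genes 0.441% were called higher and 0.531% lower, 48.3% had a fold change above 0 and 51.6% below it, and the median was -0.016. Their level at 14 d chose these 100 genes, and it also enters the fold change, so their median is a description.

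Calls were more frequent among genes with more counts. When the tested genes were put in 4 equal classes by mean level over all 18 libraries, 0.361% were called in the lowest class, up to 9.92 CPM, and 0.682%, 1.12% and 1.72% in the classes above it. The median SE of the log2 fold changes was 0.44, 0.33, 0.28 and 0.24 in these classes. Of 113 tested genes with a fold change of at least 4 in either direction, 33 were called. The 80 that were not called had a median level of 5.59 CPM over the 6 libraries, and the 33 called ones 20.6 CPM. Whether depth, spread between replicates or chance set apart the uncalled ones was not tested.

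The called genes were spread over the genome. The share of tested genes called, in either direction, was 1.40% on chromosome 1H, 0.747% on 2H, 0.923% on 3H, 0.767% on 4H, 0.694% on 5H, 0.957% on 6H and 1.41% on 7H. On 1H 6 genes rose and 12 fell, on 6H 3 rose and 8 fell, and on 7H 10 rose and 10 fell. In 3 cases both members of a pair of called genes had no other tested gene between them in the order of identifiers, and in each pair both genes moved the same way. A pair on 1H rose, with 59.7 and 32.4 CPM at 21 d against 27.0 and 15.8 CPM at 14 d. A pair on 5H fell, with 1.15 and 11.0 CPM at 21 d against 10.8 and 34.5 CPM at 14 d, and a pair on 6H fell, with 28.1 and 8.77 CPM at 21 d against 67.2 and 28.8 CPM at 14 d. Neighbours with near-identical sequence can share reads, which would make single members of such pairs uncertain. Whether the genes of these pairs have such sequence was not tested. Called genes a little further apart moved the same way in some pairs and opposite ways in others. On 7H, called genes with 2 tested genes between them had log2 fold changes of 2.143 and -1.425. How often neighbours among all tested genes move the same way was not counted.

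The course from 7 d differed from gene to gene. The median level of the 44 risen genes in Karl was 18.0 CPM at 7 d, 30.3 CPM at 14 d and 86.3 CPM at 21 d, and that of the 53 fallen genes 53.9, 41.3 and 11.0 CPM at 7, 14 and 21 d. The levels at 14 d and 21 d chose these genes, and the 7 d libraries held fewer counts and carry another numbering style in the labels. Among the genes described above, HORVU2Hr1G119090 fell over both intervals, while HORVU5Hr1G114230 had 80.3 ± 102 CPM at 7 d, where replicate 2 held 198 CPM and the others 23.1 and 20.2 CPM, then 83.8 ± 58.1 CPM at 14 d and 3.61 ± 3.73 CPM at 21 d (n = 3, errors are SD). Others stood higher at 14 d than at 7 d and fell afterwards, as a 1H gene with 13.6 CPM at 7 d, 79.2 CPM at 14 d and 16.3 CPM at 21 d, and a 6H gene with 8.89, 38.3 and 7.75 CPM at 7, 14 and 21 d. Those were picked out after their values were seen.

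**Figure D3:**
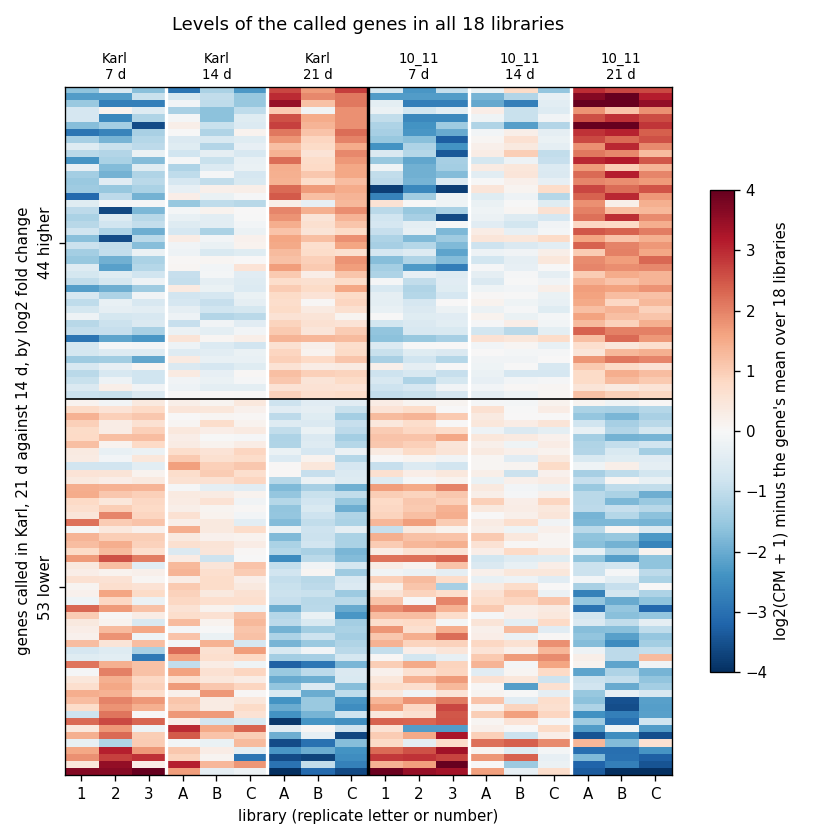
Rows are the 97 genes called in Karl between 21 d and 14 d, ordered by log2 fold change, and columns are all 18 libraries in order of age within each line. Colour gives log2(CPM + 1) minus the gene's mean over the libraries; the upper 44 rows are mostly highest and the lower 53 rows mostly lowest in the 21 d libraries of both lines, and the paler 21 d column in Karl is replicate B.

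The genes called in Karl had the same direction of change in the line 10_11, whose libraries entered the spread behind the calls but not the Karl fold changes. All 44 genes that rose in Karl were also higher in 10_11 at 21 d than at 14 d, and 43 of them were called there, where 10.7% of all tested genes were called higher. All 53 genes that fell in Karl were lower in 10_11 at 21 d, and 36 were called, where 9.12% of all tested genes were called lower (edgeR adjusted p under 0.05 for both counts). The median log2 fold change in 10_11 was 1.75 for the risen and -1.67 for the fallen genes, beside -0.01 over all tested genes. When the library labelled 10_11 14 d replicate C was left out, 40 and 32 genes were called in the same direction, beside 9.48% and 7.95% of all tested genes, and 44 of 44 and 52 of 53 had the same sign. With the lines fitted apart, so that neither shared a library or a spread with the other, the 6 Karl libraries called 36 genes higher and 40 lower. In the 10_11 libraries alone all 36 had a fold change above 0 and 32 were called higher, beside 8.76% of all tested genes, and of 38 of the 40 that were tested 37 lay below 0 and 26 were called lower, beside 7.83%. Once the library labelled 10_11 14 d replicate C was left out, these calls numbered 30 of 36, beside 7.41%, and 24 of 39, beside 6.78% (edgeR adjusted p under 0.05 for each count).

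The named genes were measured in 10_11 as well. HORVU5Hr1G095580 had 6060 ± 760 CPM in 10_11 at 21 d, against 855 ± 610 CPM at 14 d (SD, n = 3 each), and HORVU2Hr1G112830 had 73.0 ± 41.5 CPM there at 21 d, against 1.38 ± 1.25 CPM at 14 d (SD, n = 3 each). HORVU2Hr1G119090 had 1.17 ± 2.03 CPM in 10_11 at 21 d, against 82.7 ± 52.96 CPM at 14 d (SD, n = 3 each). HORVU5Hr1G114230 had 1.03 ± 0.525 CPM at 21 d, against 11.9 ± 5.81 CPM at 14 d in 10_11 (SD, n = 3 each), a change that was not called (edgeR adjusted p = 0.0903). Within these 14 d groups, the library labelled replicate C, which went against its line label, gave 305, 2.75, 73.2 and 13.8 CPM for the 4 genes in this order. When it was left out, the change of HORVU5Hr1G114230 in 10_11 had an edgeR adjusted p of 0.136, and the other 3 genes were still called, with 0.00539, 6.06e-05 and 0.00029.

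**Figure D4:**
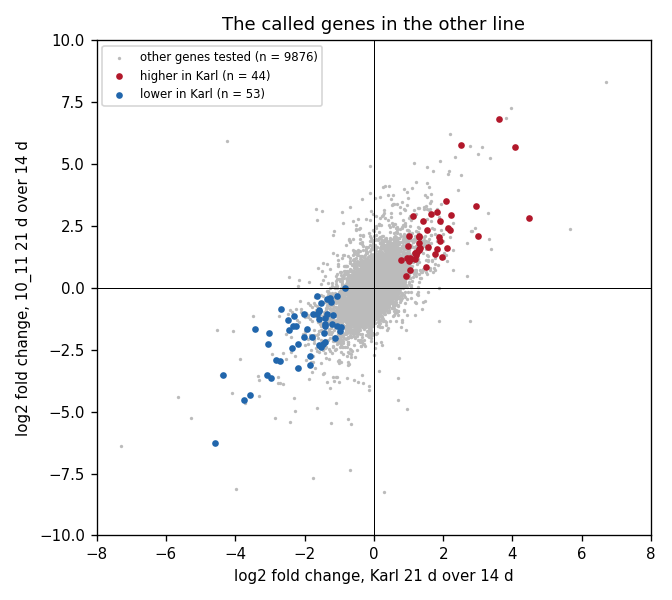
The log2 fold change of 21 d over 14 d in Karl (horizontal axis) and in 10_11 (vertical axis) for all genes tested (grey), the 44 genes called higher in Karl (red) and the 53 called lower (blue). The red points lie above 0 and the blue points below 0 on both axes; the groups of the 2 axes share no library, but the spread was estimated from all libraries together.

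Read the other way, the genes called in 10_11 mostly had the same sign in Karl. Of 1072 genes called higher in 10_11 at 21 d, 973 (90.8%) had a fold change above 0 in Karl, against 48.3% of all tested genes, and 43 (4.01%) were called there, against 0.441% of all. Of 910 called lower in 10_11, 847 (93.1%) had a fold change below 0 in Karl, against 51.6% of all tested genes, and 36 (3.96%) were called, against 0.531% of all. The 43 and 36 genes are the same as those counted above, and the calls of both lines came from the same fit with a shared spread. The median log2 fold change of the 2 lists was 0.44 and -0.45 in Karl, and 1.20 and -1.24 in 10_11, where these genes were chosen for their change. When the library labelled 10_11 14 d replicate C was left out, the lists held 984 and 825 genes, and 86.8% and 91.9% had the same sign in Karl, with medians of 0.44 and -0.43 there. In Karl 49 (4.98%) and 33 (4.00%) of them were called, where that fit called 0.510% of all tested genes higher and 0.578% lower.

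A score built from these lists, the mean log2 CPM of the 1072 genes minus that of the 910 genes, placed each Karl library on the age response of the other line. It was 0.89, 0.44 and 0.57 in Karl 21 d replicates A, B and C, against -0.36, -0.66 and -0.29 in Karl 14 d replicates A, B and C. The ages did not overlap, replicate A was highest and replicate B lowest at 21 d, and the difference was 1.07 (exact permutation test, two-sided, p = 0.1, the smallest that 20 splits of 3 against 3 allow). The Karl 7 d libraries lay at -1.79 to -1.47. The 10_11 libraries of 14 d and 21 d chose the genes. Those of 21 d lay at 1.5 to 2.0, and those of 14 d at -1.18, -1.06 and -0.78 in replicates A, B and C, below all Karl 14 d libraries. Choosing the genes without that 14 d replicate C of 10_11, the difference was 1.02 (exact permutation test, two-sided, p = 0.1).

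Whether the change itself differed between the lines was tested by the difference of the 21 d minus 14 d changes, 10_11 minus Karl. edgeR called 0 genes, with 1081 genes (10.8%) at an unadjusted p under 0.05 and a smallest adjusted p of 0.0965. Among the 97 genes 17 had an unadjusted p under 0.05, and the smallest edgeR adjusted p was 0.138. DESeq2 called 65 genes (1.49% of the 4376 it gave an adjusted p), among them 3 of the 67 called in Karl that had one (4.48%). These counts rest on the library labelled 10_11 14 d replicate C. When it was left out, edgeR called 9 genes (0.0867%), 1 of them among the 97, and 1284 (12.4%) had an unadjusted p under 0.05, 20 of them among the 97. DESeq2 then called 169 (3.45% of 4902), among them 6 of 70 (8.57%). The 1 of the 97 that edgeR then called, singled out after its values were seen, was the first of the 1H pair described above. It had 59.7 ± 12.2 CPM in Karl at 21 d, against 27.0 ± 2.69 CPM in Karl at 14 d (SD, n = 3 each). In 10_11 it had 169, 134 and 134 CPM in replicates A, B and C of 21 d, against 19.0, 14.6 and 24.4 CPM in those of 14 d, the last being the library that went against its label. Its rise was larger in 10_11 by 1.95 on the log2 scale, with an SE of 0.35 (edgeR adjusted p = 0.0402), when that library was left out, and by 1.76 with it (0.138). For the other 96 genes a change called in one line and not in the other was not shown to differ by edgeR.

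The number of called genes in Karl depended on single libraries. It was 2 without Karl 21 d replicate A and 6 without replicate C, all of them risen genes, but 123 without replicate B. Leaving out replicate A, B or C of Karl at 14 d gave 21, 42 and 24. Replicate B was the 21 d library nearest to the 14 d libraries. Of the 44 risen genes it had the lowest 21 d level in 37, and of the 53 fallen genes the highest in 33. Values of these same libraries chose the genes, and the order was not counted over all tested genes. Replicate B also held the most counts of the 6, and the part of depth in this order was not tested. Over all tested genes the mean absolute difference in log2 CPM between Karl 21 d replicate B and the 14 d libraries was 0.409 to 0.471, against 0.493 to 0.526 for replicate A and 0.484 to 0.613 for replicate C.

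**Figure D5:**
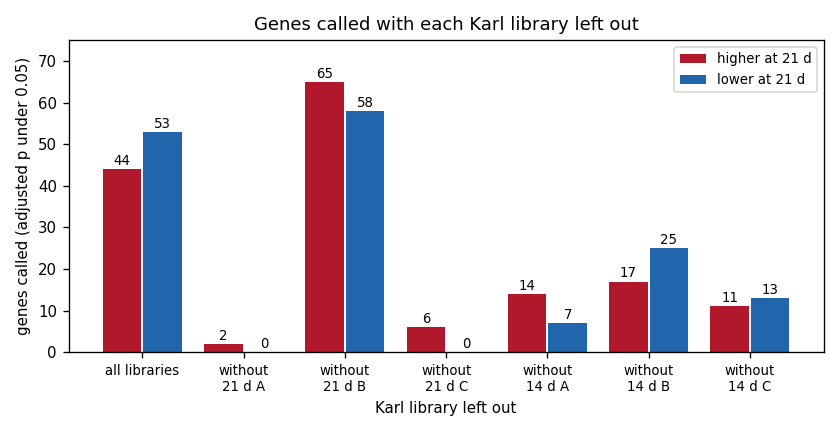
Genes called higher (red) and lower (blue) at 21 d in Karl with all libraries and with each of the 6 Karl libraries left out in turn. The counts are 44 and 53 with all libraries, 2 and 0 without Karl 21 d replicate A, and 65 and 58 without Karl 21 d replicate B.

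Many calls lay near the threshold. Of the 97 genes, 95 lost the call in at least 1 of the 6 fits that left out a Karl library, and the fold change of 13 moved by over 1.5 times in at least 1 of them. Of the 97, 48 had an adjusted p of 0.04 or more and 14 were under 0.01, 9 risen and 5 fallen (edgeR). At an adjusted p under 0.1, 108 genes were higher and 106 lower (edgeR). At an unadjusted p under 0.05, 1285 genes were counted, 614 higher and 671 lower. DESeq2 called 254 genes (3.15% of those it gave an adjusted p), 146 higher (1.81%) and 108 lower (1.34%), and 91 of the 97 genes were among them. The authors' deposited table gave 211 genes an adjusted p under 0.05 in this comparison (1.55% of 13626), 117 higher (0.859%) and 94 lower (0.690%) at 21 d. These included 94 of the 97 genes in the same direction, 96.9% of the 97 and 44.5% of the 211 genes called in the authors' deposited table.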

How the data were processed

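The authors deposited 1 table of genes by libraries, whose raw columns hold whole-number read counts, per the file headers. It also gives log2 fold changes of 14 d over 21 d (from their sign against the normalized columns), p-values and adjusted p-values for Karl, per the file headers. The submitters' processing notes name bcl2fastq, cutadapt, STAR 2.4.2a, HTSeq and DESeq2. For the genome build, the annotation and molecular identifiers nothing was given in the sources used here, so counts may include amplification copies. Errors are SDs over the libraries of a group or SEs of the fit, and so include the spread between libraries. Groups came from the sample titles. The deposited counts entered edgeR 4.0.16 (R 4.3.3) unchanged, with filterByExpr by group and TMM. The two-sided quasi-likelihood test was fitted to all 18 libraries with 1 mean per line and day (12 residual degrees of freedom). The same fit was run on counts simulated from its own estimate of spread. Those counts held no library that went against its line label, so that run cannot speak to the dependence on single libraries. CPM uses TMM-scaled totals, and scores use log2 CPM with a prior count of 2. The standard error is the log2 fold change over the square root of F. The labels call the 3 samples of a group independent but do not say whether they share pots.

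The members and lists were chosen with earlier results of these data known. The genes named were, in each direction, the first 2 by size of fold change among called genes whose higher group averaged 20 CPM or more and whose libraries did not overlap, which 41 risen and 40 fallen genes passed. The rule allowed 12 had names matched, and 0 identifiers matched the reference gene table. The line check used genes past an adjusted p of 0.05 that differed by at least 1 log2 unit, in the same direction, on both other days. The library labelled 10_11 14 d replicate C was left out when genes were chosen for 21 d. Alternatives were DESeq2 1.42.0, size factors of that tool, no filter, a 2-fold minimum, other sets of libraries, a replicate block, thinned counts and each library left out. The fits of each line apart were added after seeing the data.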

Additional observations from a re-analysis of the deposited data

How the results depend on the processing

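The count of 97 called genes in Karl (44 higher, 53 lower) kept within 1.5 times with DESeq2 size factors, a fold of at least 2, the 6 or 9 Karl libraries alone, Karl 14 d and 21 d thinned to their smallest library, and on leaving out the library labelled 10_11 14 d replicate C, except that the 9 Karl libraries gave 29 lower. The genes differed more than the count: the 6 Karl libraries shared 44 of the 97 (76 called) and the 9 shared 52 (70 called). The count was 254 with DESeq2 (146 higher, 108 lower), 60 without a filter (26 lower), 39 without the 7 d libraries (18 higher, 21 lower), and 20 with all libraries thinned to 353982 counts (9 higher, 11 lower). With 1 Karl library left out it ranged from 2 to 123 (2 to 65 higher, 0 to 58 lower). The contrast of the lines' changes called 0 genes, 65 with DESeq2, 9 on leaving out that library of 10_11 (169 by DESeq2, an alternative chosen after seeing the data), and 0 to 2 with 1 Karl library left out. With a replicate block 52 genes were called (28 higher, 24 lower), 49 of them among the 97. The deviations of same-letter libraries had correlations of 0.17, -0.32 and -0.058, and those of other pairs -0.44 to 0.44. With 3 libraries a group, such values cannot decide whether the letters pair the samples. The labels do not say what the letters mark, so they were not taken as pairing. DESeq2 called 91 of the 97 genes and gave no adjusted p for the other 6. Of the named genes, HORVU5Hr1G114230 was also not called with the 9 Karl libraries (edgeR adjusted p = 0.0514), the replicate block (0.071) or all libraries thinned (0.0833), nor HORVU2Hr1G112830 with the last (0.0564). The score difference of 1.07 ranged from 0.94 to 1.16 over its 9 alternatives. The cause of these shifts was not tested.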
